A study of Mus musculus with 4 samples.

Results

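Endothelial cells hold together through adherens junctions, built on cadherins that bind one another across the cell gap, and tight junctions, built on claudins, occludin and the junctional adhesion molecules (JAMs). Scaffold proteins under the membrane, with ZO-1 as the best known, tie these proteins to actin. In vessels VE-cadherin (Cdh5), PECAM-1 (Pecam1), claudin-5 (Cldn5) and ESAM (Esam) are typical of endothelium, whereas N-cadherin (Cdh2), ZO-1 (Tjp1) and several JAMs are made by many cell types.

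The 10 junction genes described here were chosen by symbol: Cdh5, Cdh2, Pecam1, Cldn5, Ocln, F11r, Jam2, Jam3, Esam and Tjp1, each found on 1 row of every file, out of 23238 symbols in all. They were read in 4 RNA libraries of mouse cells that the labels call cavernous endothelial, grown from the erectile tissue of the penis (corpus cavernosum), after 72 hours of glucose treatment. Normal glucose had 2 libraries (replicates 1 and 2), and high glucose had 2 (numbered 2 and 4). All were grown in M199 medium with fetal bovine serum, antibiotics and heparin. The labels give no strain, age, passage, glucose concentration or osmotic control, and do not say whether replicates are separate cultures or animals, so a p-value here reflects no more than library-to-library spread, part or all of which may be technical.

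Totals ran from 46571770 to 74971589 counts per library. Levels are library-scaled counts (CPM, after TMM scaling). The label could be set against its markers: over 14 endothelial marker genes that are not among the 10, summed levels ran from 27.9 to 44.7 CPM, 10 of the 14 had a mean under 1 CPM, and Flt1 and Egfl7 were the highest. Over 10 fibroblast markers the sum ran from 9395 to 11387 CPM, over 12 pericyte and smooth muscle markers from 651 to 977 CPM, and over 12 epithelial markers from 7.49 to 16.9 CPM. Over 5 lymphatic endothelial markers it ran from 1703 to 2034 CPM, nearly all of it Pdpn, which fibroblasts also make. Without Pdpn it ran from 42.1 to 62.6 CPM, nearly all of it Flt4 (40.6 to 61.1 CPM). Prox1 had 1.04 to 1.43 CPM, and Lyve1 and Ccl21a were lower still. Over 9 leukocyte markers the sum ran from 73.5 to 84.7 CPM, and over 8 Schwann cell and neuronal markers from 17.4 to 25.3 CPM. No gene of these lists was at 0 in all 4 libraries. The general endothelial markers were detected at low levels beside abundant connective tissue transcripts, and in bulk RNA few cells of a type and little RNA per cell cannot be told apart. Normal glucose replicate 2 stood apart from the rest, with a Pearson correlation of log2(CPM + 1) across genes of 0.985 to 0.986 with the other libraries, against 0.993 to 0.995 among those 3; genes are not independent replicates, so this describes the libraries only.

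Levels of different genes were compared per kilobase of annotated exon (GENCODE M21 on GRCm38, the assembly also called mm10). For description, the 10 genes were split into an abundant set of 6 and a scarce set of 4. Averaged over the 4 libraries, Jam2 had 35.9 CPM per kilobase, F11r 20.4, Tjp1 15.4, Cdh2 13.4, Esam 11.8 and Jam3 8.63 CPM per kilobase. A 6.90-fold step in level then led down to Cdh5 with 1.25, followed by Pecam1 with 0.487, Ocln with 0.0752 and Cldn5 with 0.00455 CPM per kilobase. Within the scarce set, the step from Pecam1 to Ocln was 6.48-fold and that from Ocln to the barely counted Cldn5 16.5-fold. Jam2 stood above 93.9% of the 19969 detected genes that had a length, Cdh5 above 47.7%, Pecam1 above 37.3% and Ocln above 22.4%. Ranges over the 4 libraries overlapped between the neighbours Tjp1 and Cdh2, Cdh2 and Esam, and Esam and Jam3. They did not overlap between Jam2 and F11r, F11r and Tjp1, or any neighbours from Jam3 downward, but these steps are descriptions of 4 libraries without a test. With the longest transcript as the length Cdh2 moved up to rank 2 and Esam to rank 4, while F11r moved down to rank 3 and Tjp1 to rank 5. With the coding length Cdh2 moved up to rank 3 and Jam3 to rank 4, while Tjp1 moved down to rank 6. The 4 scarce genes kept ranks 7 to 10 under both. The values themselves depend on the length: Jam2 had 49.6 CPM per kilobase of longest transcript and 224 per kilobase of coding sequence, Cdh2 22.3 and 39.7, and Cdh5 1.31 and 2.23.

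**Figure D1:**
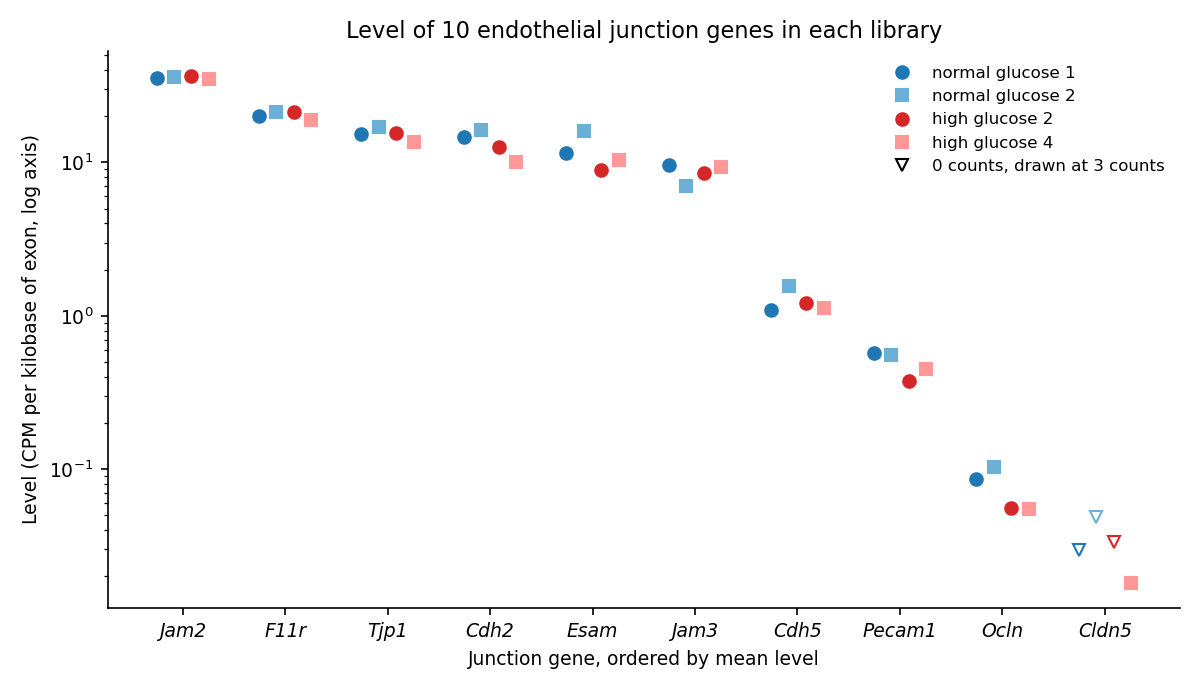
Level of each of the 10 junction genes in CPM per kilobase of exon (vertical, log axis), with 1 symbol per library. Open triangles mark libraries with 0 counts, drawn at the value of 3 counts. Jam2 to Jam3 lie between 7.05 and 36.6, and Cdh5 to Cldn5 lie below 1.6, with Cldn5 at 0 counts in 3 libraries.

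High glucose was compared with normal glucose by edgeR's quasi-likelihood test over all 16270 genes that passed the filter on low counts, with Benjamini-Hochberg adjustment and a threshold of 0.05. Of the 10 junction genes 9 passed the filter, all but Cldn5, and 0 of 9 passed the threshold in either direction, where 0.0123% of all genes tested did. Adjusted p-values of the 9 ran from 0.913 to 1.00 (edgeR). DESeq2, edgeR's exact test and limma-voom also called 0 of the members. At an unadjusted p under 0.05 (edgeR), 0 of the 9 were higher and 2 were lower, Cdh2 and Esam, where 2.22% of all genes tested were higher and 3.23% lower. In 4 of 9 both high glucose libraries lay below both normal glucose libraries, and in 0 of 9 above, where 16.2% and 16.3% of all genes tested did so. Over the 9 genes the median log2 fold change was -0.18, 8 lying below 0 and 1 above, beside -0.0045 over all genes tested. Omitting 1 library at a time moved this median. It was -0.41 when normal glucose replicate 1 was dropped. It was -0.12 on dropping replicate 2 of that group, and -0.13 on dropping replicate 4 of high glucose, each time with 6 genes below 0 and 3 above. With 2 libraries against 2, an exact two-sided permutation test of a single gene cannot go below 0.333, so only the fit across all genes was used.

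Among the cadherins, VE-cadherin forms the endothelial adherens junction and N-cadherin joins endothelial cells to pericytes and is the main cadherin of mesenchymal cells. Cdh5 (chromosome 8, 104101625 to 104144511) had 4.61 and 6.56 CPM in normal glucose (replicates 1 and 2, in that order throughout), and 5.10 and 4.75 CPM in high glucose (2 and 4). The groups overlapped, and the highest value was that of normal glucose replicate 2. The log2 fold change was -0.18 (SE 0.26, 95% interval -0.77 to 0.41, unadjusted p = 0.509, edgeR), and without normal glucose replicate 2 it was 0.094.

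Cdh2 (chromosome 18, 16588877 to 16809246) had 117 and 132 CPM in normal glucose, and 101 and 80.9 CPM in high glucose. Both high glucose libraries were below both normal glucose libraries. Its means were 125 ± 10.2 and 91.0 ± 14.3 CPM (SD, n = 2 each), for a log2 fold change of -0.45 (SE 0.19, 95% interval -0.89 to -0.01, unadjusted p = 0.0455, adjusted p = 0.913, edgeR). This difference did not hold over all genes tested. Leaving out normal glucose replicate 1 gave -0.53 with an adjusted p of 0.0315 (edgeR), in a fit where 1 library stood for normal glucose and 2708 genes (16.2%) passed; leaving out any other library kept the sign and made no call.

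Per kilobase, Cdh2 exceeded Cdh5 in every library. The ratio of Cdh2 to Cdh5 was 13.3 and 10.5 in normal glucose, and 10.3 and 8.89 in high glucose. By coding length instead of exon length the ratios were 14.8 to 22.0. The high glucose ratios were lower, but the nearest pair across the groups, 10.5 and 10.3, lay closer together than the replicates of either group. Cdh11, a cadherin typical of mesenchyme, was in turn 1.23 to 2.11 times Cdh2 per kilobase.

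Pecam1 codes for an adhesion protein of the lateral endothelial border that platelets and leukocytes also carry (chromosome 11, 106654217 to 106750628). It had 3.58 and 3.44 CPM in normal glucose, and 2.32 and 2.80 CPM in high glucose, from 254, 150, 148 and 217 counts. Both high glucose libraries were lower. The log2 fold change was -0.45 (SE 0.26, 95% interval -1.05 to 0.15, unadjusted p = 0.12, edgeR), not past the threshold. The 14 other endothelial markers summed to 35.1 and 44.7 CPM in normal and 27.9 and 29.7 CPM in high glucose, and the pericyte and smooth muscle markers to 676 and 977 CPM and to 651 and 671 CPM, also without overlap. These sums rest on few genes. Without Flt1 the endothelial sums overlapped, at 14.8 and 20.3 against 14.3 and 15.2 CPM, and of the 14 genes 3 were lower without overlap, 1 (Kdr) was higher and 10 overlapped. Of the 12 pericyte and smooth muscle genes 4 were lower without overlap and 2, Rgs5 and Kcnj8, were higher. Over all genes tested, 16.2% were lower and 16.3% higher without overlap. Without Cspg4 the pericyte and smooth muscle sums overlapped, at 531 and 746 against 542 and 543 CPM. Over the 9 leukocyte markers the sums were 73.5 and 78.6 CPM in normal and 84.7 and 79.7 CPM in high glucose, higher without overlap. Without Lyz2 the leukocyte sums overlapped, at 46.3 and 60.6 against 56.9 and 51.3 CPM. Of the 9 genes 3 (Adgre1, Itgam and Lyz2) were higher without overlap, 0 were lower and 6 overlapped. The part of any of these lists in the Pecam1 and Esam values was not tested.

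Esam codes for an immunoglobulin-domain protein of endothelial tight junctions and platelets (chromosome 9, 37528078 to 37538319). It was the most abundant of the typically endothelial members, with 33.3 and 46.1 CPM in normal glucose and 25.6 and 29.9 CPM in high glucose. Both high glucose libraries were lower, and the normal glucose libraries also stood well apart from each other. Means were 39.7 ± 9.09 and 27.7 ± 3.0 CPM (SD, n = 2 each), a log2 fold change of -0.51 (SE 0.22, 95% interval -1.02 to -0.01, unadjusted p = 0.0469, adjusted p = 0.913, edgeR). The size depended on the normal glucose libraries: it was -0.26 without replicate 2, and -0.73 without replicate 1. In each of these fits 1 library stood for normal glucose. Per kilobase Esam was 7.37 to 10.6 times Cdh5 and 20.2 to 29.1 times Pecam1 (9.998 to 14.4 and 17.3 to 24.9 times by coding length), so the endothelial members did not share 1 level in these libraries.

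The JAMs are small adhesion proteins that help to place polarity and tight junction complexes, and leukocytes bind them on their way through the vessel wall. Jam2, which codes for JAM-B (chromosome 16, 84774123 to 84825928), had 216 and 218 CPM in normal glucose, and 221 and 212 CPM in high glucose. The groups overlapped, and the lowest and highest values were both from high glucose. Its log2 fold change was -0.0028 (SE 0.17, 95% interval -0.40 to 0.39, unadjusted p = 0.987, edgeR), an interval that leaves room for moderate changes in either direction.

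F11r, which codes for JAM-A (chromosome 1, 171437535 to 171464603), had 53.3 and 56.9 CPM in normal glucose and 56.8 and 50.2 CPM in high glucose, with overlapping groups and a log2 fold change of -0.042 (SE 0.18, 95% interval -0.45 to 0.37, edgeR). Jam3, which codes for JAM-C, the partner that JAM-B binds on the opposite cell (chromosome 9, 27097384 to 27155421), had 31.0 and 22.5 CPM in normal glucose and 27.2 and 29.8 CPM in high glucose. Its lowest value was that of normal glucose replicate 2, and its log2 fold change of 0.088 (SE 0.22, 95% interval -0.41 to 0.59, edgeR) became -0.12 without that library. An antisense gene, Gm48796, overlaps 36.2% of the exon bases of Jam3, and as the use of strand in counting is not given in the sources used here, reads of the pair cannot be told apart.

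The composition of the JAM family varied little between libraries. Of the sum of the 3 JAM genes per kilobase, Jam2 made up 54.6% and 56.0% in normal glucose and 55.1% and 55.5% in high glucose. F11r made up 29.8% to 33.1% over the 4 libraries, and Jam3 10.9% to 14.8%. By coding length the share of Jam2 was 70.7% to 72.1%.

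**Figure D2:**
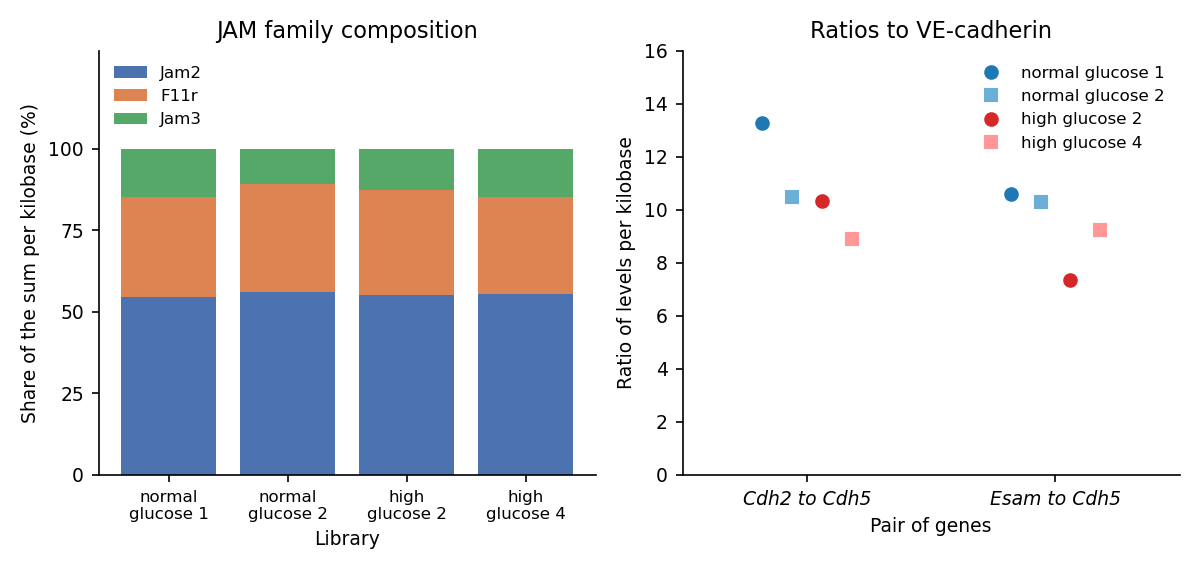
Left, shares of Jam2, F11r and Jam3 in their summed level per kilobase, as stacked bars for each library. Right, the ratios of Cdh2 and of Esam to Cdh5 per kilobase, with 1 point per library. Jam2 holds 54.6% to 56.0% in every library, and both ratios lie above 7 in all 4.

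Transcripts of the transmembrane proteins claudin-5 and occludin were scarce, while that of their scaffold was abundant. Cldn5, the main claudin of many endothelia (chromosome 16, 18776847 to 18778262), had 0 counts in both normal glucose libraries and in high glucose replicate 2, and 2 counts in high glucose replicate 4. The floor was set at 3 counts, or 0.0423 CPM and 0.0688 CPM in normal glucose replicates 1 and 2 and 0.0471 CPM in high glucose replicate 2. The exact Poisson 95% interval of a count of 0 reaches 3.69 counts, and that of the 2 counts runs from 0.242 to 7.22 counts. Floors and intervals of this kind cover counting error only. All 4 libraries are at or under the floor, so no fold is given, and Cldn5 was not detectable at this depth in 3 of the libraries.

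Ocln, which codes for occludin (chromosome 13, 100496507 to 100552718), had 26 and 19 counts in normal glucose and 15 and 18 in high glucose, or 0.366 and 0.436 CPM against 0.235 and 0.232 CPM. Both high glucose libraries were lower, yet the Poisson intervals of all 4 libraries overlap, from 0.239 to 0.537 CPM in normal glucose replicate 1 to 0.138 to 0.367 CPM in high glucose replicate 4. The log2 fold change was -0.77 (SE 0.54, 95% interval -2.01 to 0.46, unadjusted p = 0.19, edgeR), which holds 0 as well as large falls. Occludin is also a protein of epithelia, and the 12 epithelial markers summed to 16.9 and 15.1 CPM in normal and 8.26 and 7.49 CPM in high glucose, most of it Krt19, without which the sums were 4.10 and 3.03 against 3.58 and 2.75 CPM and overlapped; the part of such cells in the Ocln values was not tested.

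Tjp1, which codes for the scaffold ZO-1 of tight and adherens junctions (chromosome 7, 65296165 to 65527781), had 120 and 132 CPM in normal glucose, and 122 and 106 CPM in high glucose. The groups overlapped, and the log2 fold change was -0.15 (SE 0.18, 95% interval -0.57 to 0.27, unadjusted p = 0.434, edgeR). Per kilobase Tjp1 was 164 to 281 times Ocln, and 90.6 to 155 times by coding length.

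RefSeq promoter windows on GRCm38.p6 matched 4 of the 10 genes, Cldn5, Ocln, F11r and Tjp1, which include the scarcest and some of the most abundant members. The 250 bases before the RefSeq starts of the near-silent Cldn5 and of the abundant Tjp1 are shown to set their CpG dinucleotides, in capitals, side by side. The windows are chr16:18776597-18776846 on the plus strand and chr7:65371245-65371494 on the minus strand. The Cldn5 window ends where the GENCODE gene begins, whereas the Tjp1 window belongs to a start inside the GENCODE span, whose outermost start at 65527781 has no window here.
Cldn5: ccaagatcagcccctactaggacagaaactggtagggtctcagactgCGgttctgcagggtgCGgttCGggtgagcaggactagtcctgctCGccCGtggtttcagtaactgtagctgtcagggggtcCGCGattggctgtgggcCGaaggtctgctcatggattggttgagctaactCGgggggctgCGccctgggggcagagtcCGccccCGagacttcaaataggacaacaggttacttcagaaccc
Tjp1: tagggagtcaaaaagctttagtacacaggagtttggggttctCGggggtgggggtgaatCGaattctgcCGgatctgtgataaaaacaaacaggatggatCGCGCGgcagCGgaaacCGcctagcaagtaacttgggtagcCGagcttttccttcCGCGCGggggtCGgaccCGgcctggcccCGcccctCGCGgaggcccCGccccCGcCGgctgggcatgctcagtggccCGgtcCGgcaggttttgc
The Cldn5 window holds 12 CpGs and the Tjp1 window 22, against a median of 6 over 32851 windows. The F11r window holds 17. Of the 2 windows of Ocln, the one next to the GENCODE gene start holds 14, and the other, mostly inside the gene, holds 22. All 4 genes were thus above the median. With the window holding 14, Cldn5 and Ocln had fewer CpGs than F11r and Tjp1. With the window holding 22, Ocln had as many as Tjp1. A relation of CpG count to level was not tested on these 4 genes. The E-box CACCTG, searched on both strands, was found in the F11r window and in 1 of the Ocln windows, but not in the printed ones, and 17.2% of all windows hold it. A match is only a match of letters, and nothing was measured at these promoters.

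**Figure D3:**
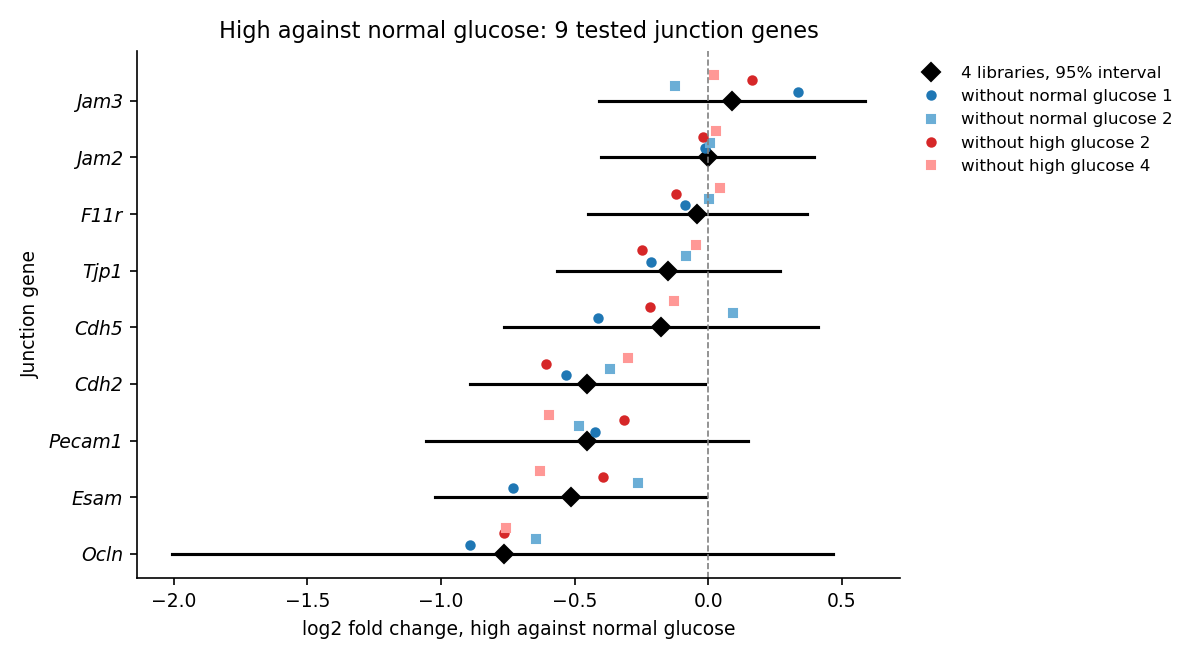
Log2 fold change of high against normal glucose for the 9 tested junction genes. Diamonds and lines give the fit on all 4 libraries with its 95% interval; small symbols give the fits that leave out 1 library. The point for Jam2 lies at 0, Ocln has the widest interval, and Cdh5, F11r, Jam2 and Jam3 change sign with the library left out.

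A wider list of 123 junction genes in 7 groups, of which 121 were found and 102 tested, gives the surroundings of the 10. None passed the threshold in either direction (edgeR), where 0.0123% of all genes tested did. With so small a share, 0 calls in a group below do not set that group apart. At an unadjusted p under 0.05 (edgeR), 1 (0.98%) was higher and 4 (3.92%) were lower, beside 2.22% and 3.23% of all genes tested. DESeq2, the exact test and limma-voom also called 0 of the list. When normal glucose replicate 1 was left out, 12 of the 103 genes then tested were called, 2 of them higher, in a fit that called 16.2% of all genes. The median log2 fold change was -0.06, with 40 genes above 0 and 62 below. High glucose lay wholly above normal glucose in 10 of the 102 (9.80%) and wholly below in 23 (22.5%), beside 16.3% and 16.2% of all genes tested.

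The cytoplasmic partners of the cadherins differed widely in level, with 0 of 14 tested genes called. The lowest were Ctnnd2 (0.395), Plekha7 (0.102), Ctnna2 (0.0462) and Ctnna3 (0.0226 CPM per kilobase). Ctnnb1, which codes for beta-catenin, had 124 CPM per kilobase on average, the alpha-catenin gene Ctnna1 29.0 and the p120-catenin gene Ctnnd1 30.5 CPM per kilobase, all above both Cdh2 and Cdh5. Ctnnd1 is uncertain, because 58.5% of its 32-base stretches also occur in other gene models. The vinculin gene Vcl, whose protein links catenins to actin, had 197 and 221 CPM in normal and 161 and 167 CPM in high glucose, without overlap (log2 fold change -0.36, unadjusted p = 0.0787, edgeR). For Vcl this share was 25.3%. Ajuba, a LIM-domain partner of alpha-catenin, had 24.5 and 24.4 CPM in normal and 18.8 and 20.0 CPM in high glucose (log2 fold change -0.33, unadjusted p = 0.115, edgeR).

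Of 13 other tested cadherins 0 were called. The highest per kilobase were Cdh11 (22.0), Cdh17 (9.64) and Cdh13 (3.52 CPM per kilobase). Cdh17, known from liver and intestine, had 49.1 and 51.0 CPM in normal and 36.4 and 36.0 CPM in high glucose (log2 fold change -0.47, unadjusted p = 0.0281, adjusted p = 0.831, edgeR). Epithelial E-cadherin, Cdh1, had 0.254 and 0.551 CPM in normal and 0.487 and 0.916 CPM in high glucose.

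Most claudins other than Cldn5 were scarce as well, Cldnd1 and Cldn12 excepted. Of 20 found, 10 passed the filter and 0 of them the threshold. Cldnd1, a claudin-domain protein gene, had 39.4 CPM per kilobase and Cldn12 4.02, and the next, Cldn20, had 0.510 CPM per kilobase. The smallest unadjusted p-values were those of Cldn11 and Cldn15 (0.186 and 0.208, edgeR), with log2 fold changes of -0.74 and 0.69. Cldn8 and Cldn16 had 0 counts in all 4 libraries.

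Other scaffolds were spread over a wide range of levels. The gene of the tight junction-associated Y-box factor, Ybx3, had 94.9 CPM per kilobase, the paracingulin gene Cgnl1 25.1 and the symplekin gene Sympk 16.5, beside 15.4 for Tjp1. Of 21 tested genes of this group 0 were called. The angiomotin genes, whose proteins sit at tight junctions, went opposite ways: Amot had 69.5 and 74.0 CPM in normal and 96.5 and 102 CPM in high glucose (log2 fold change 0.47, unadjusted p = 0.0252, edgeR), and Amotl2 had 87.9 and 97.6 CPM and then 61.5 and 71.4 CPM (log2 fold change -0.48, unadjusted p = 0.0288). Neither passed over all genes (adjusted p = 0.812 and 0.831, edgeR), and for both genes the groups did not overlap.

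Of 7 tested genes for other junctional adhesion proteins, some of them relatives of the JAMs and ESAM, 0 were called. Clmp, one of these relatives, had 81.9 CPM per kilobase, above each of the 10 members. It had 294 and 384 CPM in normal and 411 and 414 CPM in high glucose (log2 fold change 0.28, unadjusted p = 0.187, edgeR). Cxadr, the coxsackievirus and adenovirus receptor of tight junctions, also lay higher, with 3.48 and 2.98 CPM against 5.29 and 4.22 CPM (log2 fold change 0.55, unadjusted p = 0.0618, edgeR). Cd99l2, which helps leukocytes to cross endothelium, had 11.5 CPM per kilobase and overlapping groups. Igsf11 had 32.4 and 51.3 CPM in normal and 27.3 and 26.7 CPM in high glucose (log2 fold change -0.63, unadjusted p = 0.031, adjusted p = 0.837, edgeR), and -0.26 without normal glucose replicate 2. Of 8 nectin and nectin-like genes 0 were called; Pvrl2, Pvrl1 and Pvr were the highest, the first 2 with 22.4 and 16.7 CPM per kilobase. Pvr had 99.9 and 126 CPM in normal and 91.0 and 74.4 CPM in high glucose (log2 fold change -0.45, unadjusted p = 0.0549, edgeR).

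Of 29 tested genes for VE-cadherin partners and for endothelial junction control more broadly, 0 were called. Plvap, which forms the diaphragms of endothelial pores and vesicles, had 4.24 and 7.80 CPM in normal and 2.62 and 4.15 CPM in high glucose, and a fitted log2 difference of -0.82 (unadjusted p = 0.0479, adjusted p = 0.913, edgeR) that was -0.32 without normal glucose replicate 2. The phosphatase gene Ptprb, whose product acts on VE-cadherin, had 1.61 and 2.04 CPM in normal and 1.44 and 1.26 CPM in high glucose. Its log2 fold change was -0.42 (unadjusted p = 0.22, edgeR). Kdr lay higher, with 1.00 and 1.03 CPM in normal and 1.26 and 1.41 CPM in high glucose. Both genes were named after their values were seen. Of the 29 genes, 11 had a log2 fold change above 0 and 18 below. The small GTPase genes Cdc42, Rac1 and Rhoa, which steer junctional actin in all cells, had 200, 140 and 62.2 CPM per kilobase. Rac1 is uncertain, since 51.2% of its 32-base stretches recur in other genes.

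**Figure D4:**
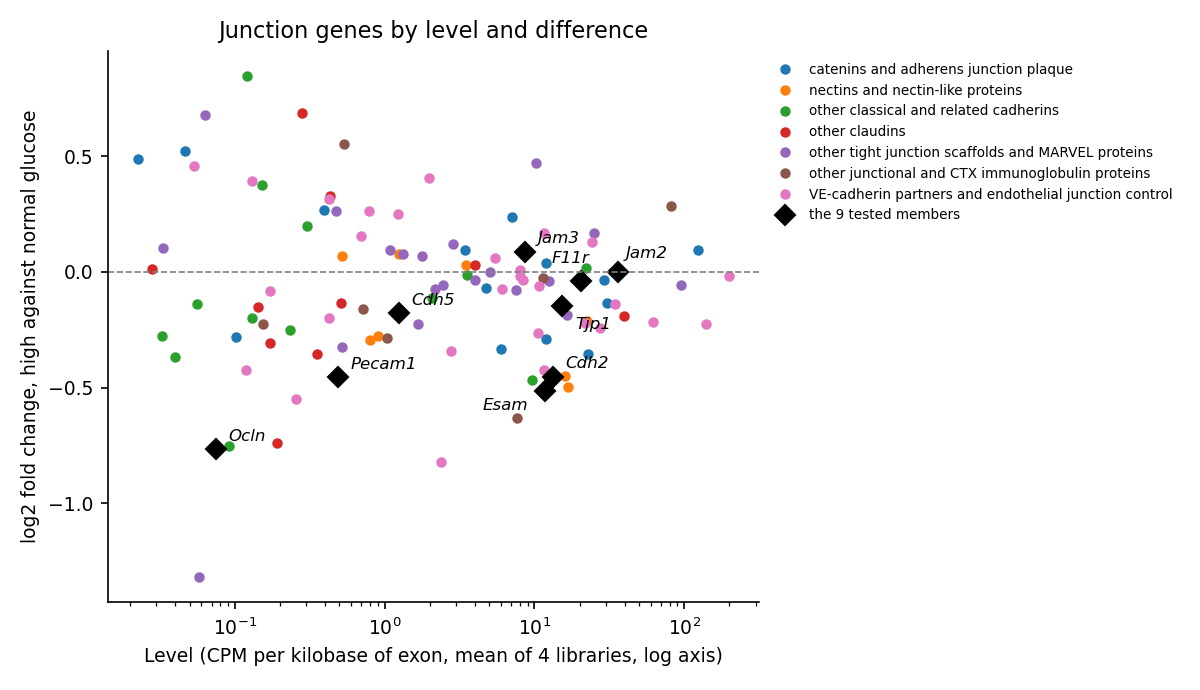
Log2 fold change of high against normal glucose (vertical) against the mean level in CPM per kilobase of exon (horizontal, log axis) for the tested genes of the wider junction list, coloured by group, with the 9 tested members as black diamonds. Cdh2 and Esam lie near -0.5 among genes of similar level, and Jam2, F11r and Tjp1 lie close to 0.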

How the data were processed

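RNA was measured in 4 libraries made with a SMARTer kit, per the labels' protocols. The deposited values are raw whole-number counts for each gene symbol, with a file for every library. Per the submitters' processing notes, which list TopHat, edgeR and build mm10, no more is known of the steps: versions, roles, the counting tool, annotation and strand setting were not given in the sources used here. The 35 symbols on several of the 23282 rows were summed. Genes were tested with edgeR 4.0.16 (R 4.3.3, limma 3.58.1; DESeq2 1.42.0 as an alternative): TMM, filterByExpr, group as the only term, two-sided, Benjamini-Hochberg over 16270 genes; the fit was tested on simulated data. Of 23238 symbols 22827 matched a GENCODE M21 gene, all 10 members among them. No library was a copy of another (chi-square per degree of freedom between pairs from 66.2 to 165.2).

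The members and gene lists were chosen with earlier results of these data known. All members are named; in each group of the wider list the rule took the 3 genes highest per kilobase and the 2 with the smallest p, of which 1 is not reported here. Alternatives were other scalings, tests, filters and lengths, rows kept apart, and leaving out each library; leaving out Rn45s was chosen after seeing the data.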

Additional observations from a re-analysis of the deposited data

How the results depend on the processing

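No paired analysis was possible because only number 2 occurs in each group. A pseudocount was not needed for counts. The count of members past the threshold was 0 under every scaling, test and filter tried, and ranged from 0 to 2 when each library was left out; the 2, Cdh2 and Esam, came without normal glucose replicate 1. The wider list gave 0 to 12 calls when each library was left out, and 0 otherwise. Over all genes the count was 2, against 65 with DESeq2, 112 with edgeR's exact test and 127 with no filter on low counts, and from 35 to 2708 when each library was left out. In these last fits the lone library of a group is assumed to vary like the others, and the cause of the spread in counts was not tested.

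Signs near 0 were not stable. Jam2 had a log2 fold change of 0.017 with upper quartile scaling, 0.036 with library totals and 0.0018 with no filter. Leaving out each library in turn gave -0.41 to 0.094 for Cdh5, -0.12 to 0.045 for F11r, -0.021 to 0.027 for Jam2 and -0.12 to 0.34 for Jam3; all 4 changed sign without normal glucose replicate 2 (Cdh5 0.094, F11r 0.0039, Jam2 0.0053, Jam3 -0.12), and F11r (0.045) and Jam2 (0.027) also without high glucose replicate 4. Cdh2 (-0.61 to -0.30), Esam (-0.73 to -0.26), Pecam1 (-0.60 to -0.32), Ocln (-0.89 to -0.65) and Tjp1 (-0.25 to -0.048) stayed below 0 whichever library was left out. Depth limits Ocln, with 15 to 26 counts per library, and Cldn5.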
